A study of Rattus norvegicus with 16 samples.

Results

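The ATP-binding cassette (ABC) transporter genes of the rat are described here in the renal outer medulla under repeated oral dosing with 2-amino-4-nitrophenol (ANP), an aromatic nitro compound. All rat gene symbols that begin with Abca to Abcg followed by a digit were taken. The RefSeq table holds 58 such symbols, 4 of them pseudogenes. A named array probe existed for 42 of these, among 15284 genes with a named probe in all. The 42 members comprise 7 Abca, 9 Abcb, 10 Abcc, 4 Abcd, 1 Abce, 2 Abcf and 9 Abcg genes. The rule uses the symbol alone and no measured value, though members and lists were chosen with earlier results of these data known.

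ABC transporters use ATP to move substrates across membranes, and most pump them out of a cell or into an organelle. In the proximal tubule, Abcc2 and Abcc4 lie in the apical membrane and pass glutathione, glucuronide and sulfate conjugates into the urine, beside the multidrug exporters Abcb1a and Abcb1b. Abca and Abcg proteins largely move lipids and sterols, Abcd proteins carry fatty acyl chains into peroxisomes or cobalamin out of lysosomes, and Abce and Abcf proteins act in translation and carry nothing. The conjugate pumps are known targets of NRF2, the transcription factor encoded by Nfe2l2, which responds to electrophiles.

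The animals were male Crl:CD Sprague-Dawley rats, 5 weeks old when dosing began. They received ANP at 750 mg/kg/day dissolved in corn oil by gavage, or corn oil alone (VC, the vehicle group), once daily. At days 1 and 7, 1 array held a pool of 3 rats for each treatment, so these days have no replicate and no test. At days 14 and 28, 3 rats of each treatment had an array each, which gives 12 arrays in 4 groups for the statistical test.

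The arrays were one-colour Agilent arrays, on which a probe's brightness stands for the amount of its transcript. Levels are log2 values relative to the 75th percentile of the same array, and a difference of 1 is a 2-fold change. Levels of different probes cannot be set against each other. On the 16 arrays, 64.8% to 69.6% of probes were well above background, and no spot was saturated. Correlations between arrays of the same group ran from 0.987 to 0.993. The 6 markers of the straight proximal tubule and the 6 measured markers of the thick ascending limb, both of which lie in the outer medulla, were well above background on all arrays. So were the 12 markers of the convoluted tubule and the 6 glomerular markers, which belong to the cortex. In bulk tissue, fewer cells of a type and less RNA per cell cannot be told apart. The 3 ANP arrays of day 28 were alone on their slide, so slide and treatment cannot be told apart at day 28. The vehicle arrays of day 14 and those of day 28 shared no slide.

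Of the 42 members, 36 could be tested at days 14 and 28, because their probe was well above background throughout 1 or more of the 4 groups. A filter of this kind favours genes that are high in 1 group. Of the 36 members tested, 34 were well above background on all 12 arrays, the exceptions being Abca5 and Abcb4. Both entered only through the ANP rats of day 28, so that their higher values there follow from the filter. The 6 members that were not tested were Abca15, Abca17, Abcc12, Abcd2, Abcg5 and Abcg8.

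The members did not move as a family. At day 28, with limma and Benjamini-Hochberg adjustment over 11849 genes at a threshold of 0.05, 3 members rose, 3 fell and the other 30 did not pass. The shares over all genes tested were 4.49% higher and 2.69% lower, or 7.18% in either direction. The members that rose were the conjugate pumps Abcc2 and Abcc3 and the channel regulator Abcc8, and those that fell were Abcd4, Abcg3 and Abcg3l1. At day 14 no member of 36 passed by the same limma test, against 0.363% of all genes higher and 0.118% lower, and 5 members had an unadjusted p under 0.05. The mean of the differences at days 14 and 28, which uses 6 arrays a side, passed for the same 6 members, 3 higher and 3 lower, against 6.14% and 4.08% of all genes, or 10.2% together. The median log2 difference over the 36 members was -0.01 at day 28 (-0.05 without Abca5 and Abcb4), beside 0.02 over all genes tested.

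With the array median in place of the 75th percentile, 76.0% of all genes called at day 28 were higher in place of 62.5%. The members then gave 4 higher and 3 lower at day 28, with Abcb6 added. Over both days the same scaling gave 72.9% higher in place of 60.1%, and 7 members higher and 3 lower. Background correction by normexp turned the day 14 split of all called genes from 75.4% to 58.0% higher, and gave Abcc2 higher and Abcc9 lower.

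**Figure D1:**
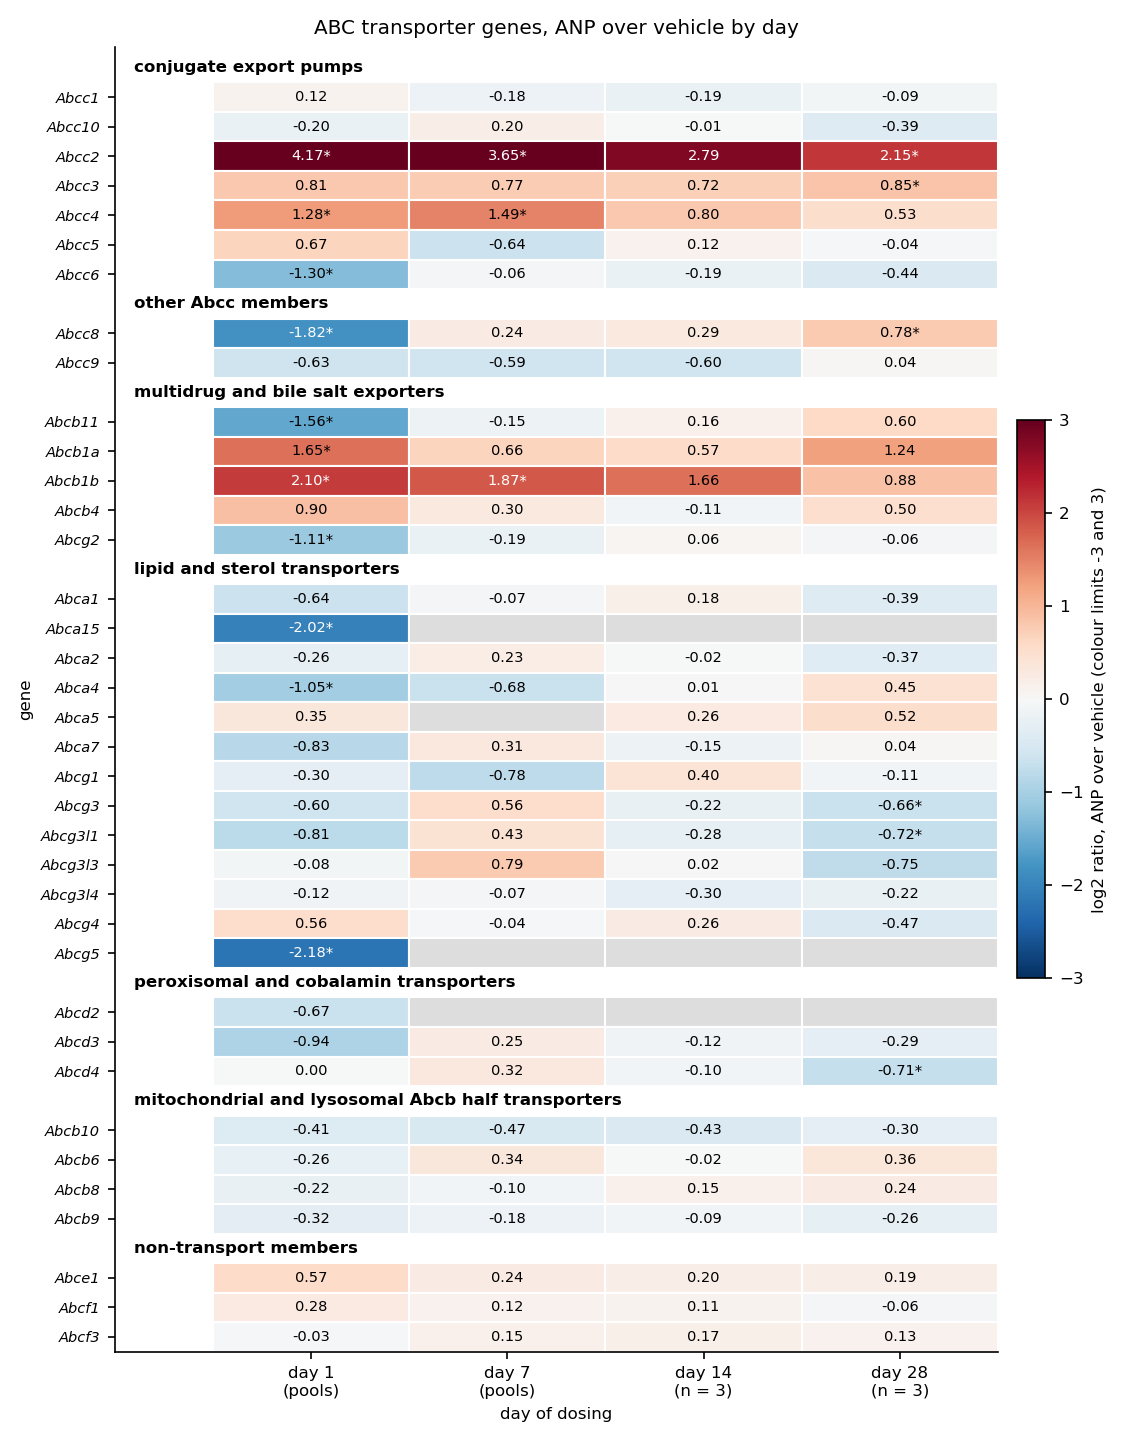
Log2 ratio of ANP over vehicle for the ABC genes reported here (rows, by role) at each day (columns), in colour and as a number. An asterisk marks a ratio of at least 2-fold between pools (days 1 and 7) or an adjusted p under 0.05 (days 14 and 28), and grey marks a gene not measured at that day; Abcc2 is the darkest row, from 4.17 at day 1 to 2.15 at day 28.

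Abcc2, also called MRP2, is the apical pump of glutathione and glucuronide conjugates, and its gene lies at chr1:252613875-252672459 of GRCr8. In the pools its level was 1.11 in vehicle and 5.28 in ANP at day 1, and 0.59 and 4.24 at day 7. At day 14 the vehicle rats had levels of 1.08, 0.46 and 0.35 and the ANP rats 2.85, 3.61 and 3.80. At day 28 the vehicle rats had 0.93, 1.33 and 1.34 and the ANP rats 1.92, 4.15 and 3.99. Every ANP array was above every vehicle array, and the first ANP rat of day 28 was the lowest of the ANP arrays.

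The pools differed 17.9-fold at day 1 and 12.6-fold at day 7. At day 14 the log2 difference was 2.79 ± 0.51 (SE, n = 3 against 3), a 6.91-fold change, with a limma adjusted p of 0.0517 that just missed the threshold. At day 28 it was 2.15 ± 0.51 (SE, n = 3 against 3; limma adjusted p = 0.035), a 4.44-fold rise. Over both days it was 2.47 ± 0.36 (SE; limma adjusted p = 0.00376). This last call held in all 21 settings that were run. The day 28 call was lost on leaving out any 1 of the 3 vehicle arrays or of the ANP rats 2 and 3 (adjusted p up to 0.112), with no background filter, and with only the day 28 groups in the fit. At day 14 Abcc2 passed in 6 of 17 settings, with adjusted p values from 0.0292 to 0.656. The difference between days 14 and 28 did not pass, at -0.64 ± 0.72 (SE; limma adjusted p = 0.799). On the slide that held the 3 vehicle arrays of day 14 and 1 ANP array, Abcc2 was 2.22 higher in that ANP rat.

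The NRF2 protein binds the antioxidant response element, whose core was searched as TGACNNNGC on both strands of the promoter windows given by RefSeq for GRCr8, from 250 bases before to 50 bases after the start. The core was in 12.1% of 33469 promoters. A promoter was held for 33 members, and 5 of them contained the core, namely Abcc2, Abcc10, Abca5, Abcg5 and Abcg8. Abcg5 and Abcg8 lie head to head and share 1 match. The match in Abcc2 begins 18 bases after the start. The sites are shown because Abcc2 had the largest ratio at every day when each member was read from its brightest probe, and the capitals mark the core in a stretch of 30 bases. They lie at chr1:252613882-252613911 (plus strand) for Abcc2, chr9:22154851-22154880 (plus strand, with the core on the opposite strand) for Abcc10, chr10:95808387-95808416 (minus strand) for Abca5 and chr6:15717898-15717927 (plus strand) for Abcg5.
Abcc2: ctcactgggaTGACATAGCgtacaacattc
Abcc10: gactctgtcccgaGCCCTGTCActctcggc
Abca5: cggagagaggTGACGCGGCggcggggacgc
Abcg5: ggataggatcTGACAGGGCactcccattgg
A match is a description of these letters only, and of the matching members only Abcc2 passed the test in an ANP comparison.

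Abcc3, also called MRP3, is a pump of the basolateral membrane that passes conjugates towards the blood (chr10:79793571-79839528). Its levels at day 14 were -1.34, -1.52 and -1.40 in the vehicle rats and -0.77, -0.65 and -0.67 in the ANP rats. At day 28 they were -1.52, -1.40 and -1.24 against -1.13, -0.34 and -0.15. The groups did not overlap at either day, and the first ANP rat of day 28 was again the lowest.

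The pools of Abcc3 differed 1.75-fold at day 1 and 1.70-fold at day 7, in the same direction. The log2 difference was 0.72 ± 0.21 at day 14 (SE; limma adjusted p = 0.174), 0.85 ± 0.21 at day 28 (limma adjusted p = 0.0377) and 0.78 ± 0.15 over both days (limma adjusted p = 0.0108). The other 2 probes of the gene gave 0.95 and 0.83 at day 28. The call over both days held in all 21 settings, while at day 28 it was lost without any 1 vehicle array or ANP rat 2 or 3 (adjusted p up to 0.122), and under the same other settings as Abcc2.

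Abcc4, also called MRP4, is an apical pump of organic anions, cyclic nucleotides and conjugates (chr15:101948387-102182912). Its pools differed 2.43-fold at day 1 and 2.81-fold at day 7, with levels of 1.91 and 1.31 in vehicle and 3.20 and 2.80 in ANP. At day 14 the vehicle rats had 1.31, 0.86 and 0.98 and the ANP rats 1.86, 1.97 and 1.73. At day 28 the vehicle rats had 1.86, 1.99 and 1.57 and the ANP rats 1.24, 2.73 and 3.04. The groups were apart at day 14 but overlapped at day 28, where the first ANP rat lay below all vehicle rats.

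The log2 difference of Abcc4 was 0.80 ± 0.37 at day 14 (SE; limma adjusted p = 0.388) and 0.53 ± 0.37 at day 28 (limma adjusted p = 0.393), so neither passed. Without ANP rat 1 of day 28 it was 1.08 at day 28 and 0.94 over both days. This rat is named because of its low value in these same data, so leaving it out is not a test of Abcc4. Without that rat Abcc2 was 2.87 higher and Abcc3 1.15 higher at day 28.

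The other 4 conjugate pumps did not pass in an ANP comparison. Abcc1, the glutathione conjugate pump MRP1, had levels of 1.15, 1.27 and 1.21 in vehicle and 1.13, 1.07 and 0.87 in ANP at day 14. At day 28 it had 0.87, 0.83 and 0.87 against 0.48, 0.90 and 0.92. Its ratio from the probe used lay between -0.19 and 0.12 at the 4 days, and the groups were just apart at day 14. Other probes of the gene gave -0.39 without overlap, -0.34 with overlap and, for a dimmer probe, -0.02 with overlap at day 14.

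Abcc5, a pump of nucleotide analogues, had 0.87, 1.06 and 1.33 in vehicle and 0.80, 1.57 and 1.27 in ANP at day 14. For day 28 the levels were 0.29, 0.54 and 0.48 against 0.06, 0.31 and 0.82. Its pool ratio was 0.67 at day 1 and -0.64 at day 7, and the replicated groups overlapped at both days.

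Abcc6, mutated in the mineralisation disease pseudoxanthoma elasticum, was 2.47-fold lower in the ANP pool at day 1, at -0.23 against 1.07. At day 7 its pools were at 1.28 in vehicle and 1.22 in ANP. At day 14 it had 1.49, 1.38 and 1.09 in vehicle and 1.28, 1.01 and 1.08 in ANP. The rats of day 28 had 1.09, 1.28 and 1.44 against 0.78, 0.93 and 0.79. The day 28 groups did not overlap, and the difference of -0.44 ± 0.13 (SE) just missed with a limma adjusted p of 0.0664.

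Abcc10, a pump of amphipathic anions, had -1.64, -1.65 and -1.68 in vehicle and -1.74, -1.71 and -1.56 in ANP at day 14. At day 28 it had -1.45, -1.45 and -1.56 against -2.20, -1.76 and -1.67, a difference of -0.39 ± 0.13 (SE; limma adjusted p = 0.0865). Over the 7 conjugate pumps the median ratio was -0.04 at day 28 and 0.04 over both days. The day 28 median turned to 0.02 with the array median as the scale. The pumps thus split, with Abcc2 and Abcc3 higher and 4 of 7 below 0 at day 28.

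**Figure D2:**
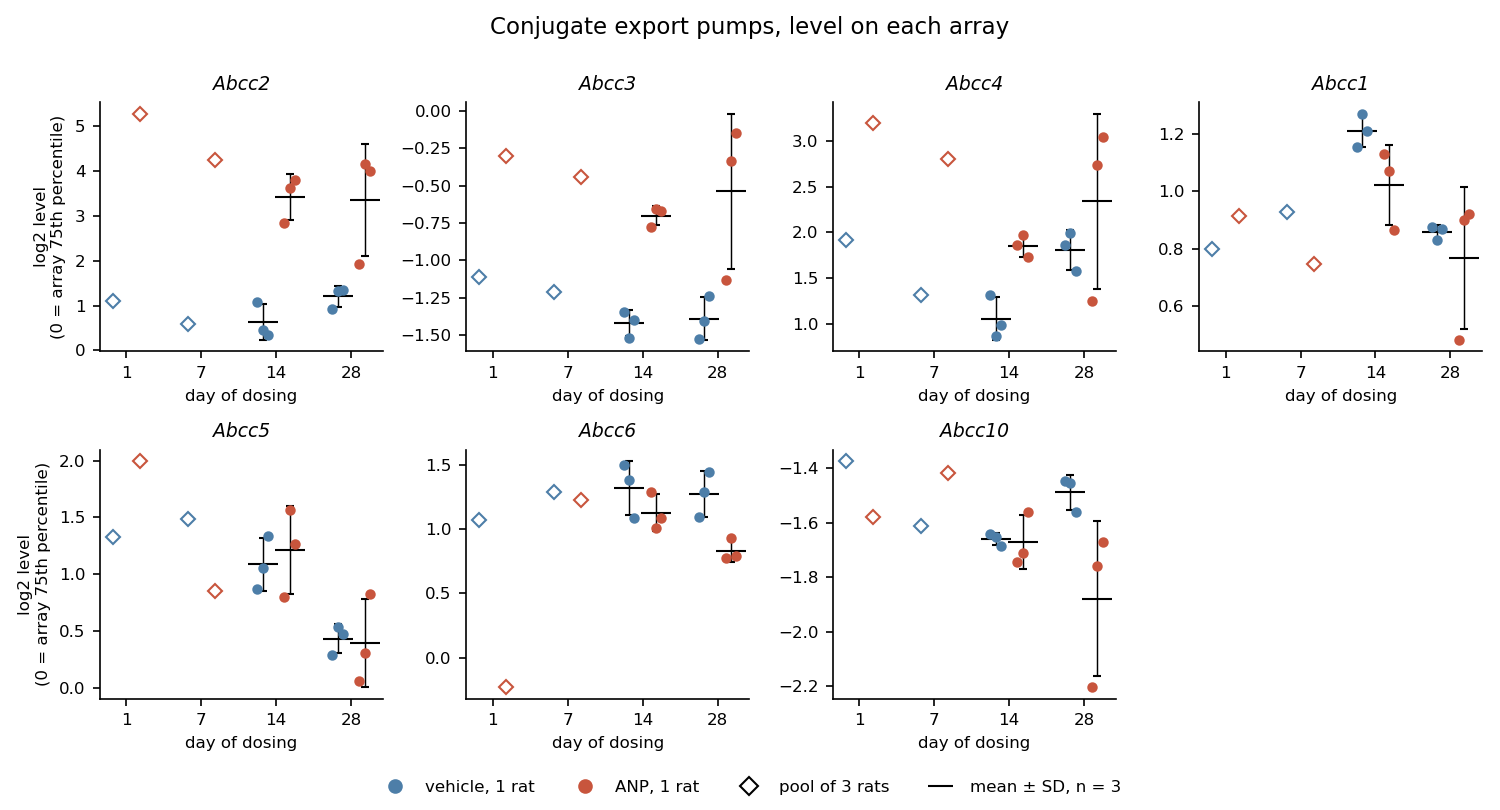
Level of each conjugate export pump (log2 of the processed signal relative to the array's 75th percentile) against day of dosing. Filled points are single rats, open diamonds pools of 3 rats, and the black bar with whiskers the mean ± SD of 3 rats; Abcc2 ran from 1.92 to 5.28 on ANP arrays and from 0.35 to 1.34 on vehicle arrays.

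At day 28 the rat with the smallest differences of Abcc2 and Abcc3 also had the smallest median difference over genes of the conjugation pathway. The list of NRF2 targets and conjugating enzymes holds 19 genes, 18 of them tested. At day 28, 9 of the 18 rose and none fell by the limma test, with a median difference of 1.18. Over both days 12 rose and none fell. The shares over all genes were 4.49% higher and 2.69% lower at day 28, and 6.14% and 4.08% over both days. At day 14 none passed, with a median of 0.63. Nqo1, a quinone reductase, was 3.70 ± 0.53 higher at day 28 (SE; limma adjusted p = 0.00701). Gstm1, a glutathione S-transferase, was 4.32 ± 0.73 higher (limma adjusted p = 0.0112), and Gclm, a subunit of the enzyme that starts glutathione synthesis, was 1.72 ± 0.22 higher (limma adjusted p = 0.00474). These genes were listed with earlier results of the same arrays known.

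In each ANP rat of day 28, the median difference of this list from the vehicle mean was 0.45, 1.47 and 1.43. The difference of Abcc2 was 0.72, 2.95 and 2.79, that of Abcc3 0.26, 1.05 and 1.24, and that of Abcc4 -0.57, 0.92 and 1.23. The first rat was lowest in all 4 measures. That rat also had the lowest levels of pumps that did not rise, at 0.48 for Abcc1, 0.06 for Abcc5, 0.78 for Abcc6 and -2.20 for Abcc10. Abcb1a did not share this order, at 1.08, 1.71 and 0.93, nor did Abcc8, at 0.80, 0.87 and 0.66, whereas Abcb1b also had its lowest value in the first rat, at 0.36, 1.77 and 0.49. At day 14 the list median was 0.70, 0.61 and 0.49, while Abcc2 stood at 2.22, 2.98 and 3.17 above the vehicle mean, so the order seen at day 28 was not present at day 14.

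**Figure D3:**
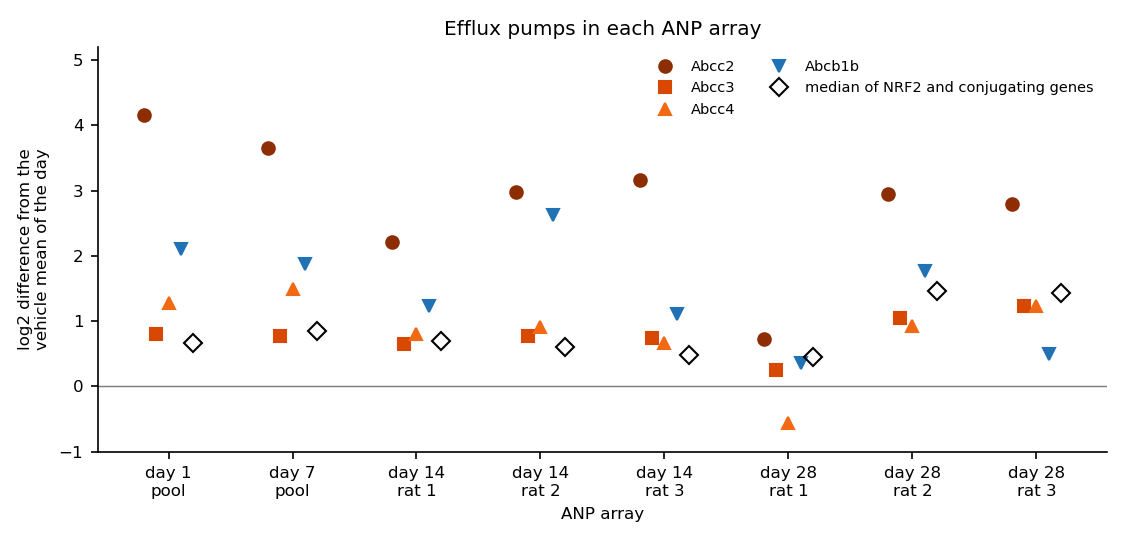
Difference of 4 efflux pumps and of the median of 18 NRF2 and conjugating genes from the vehicle mean of the same day (vertical axis, log2), for each ANP array (horizontal axis). The first rat of day 28 had the lowest values of Abcc2 (0.72), Abcc3 (0.26) and Abcc4 (-0.57) among the ANP arrays.

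The lists of genes that control or anchor the pumps are short. By the limma test, 0.481% of all genes passed at day 14, 7.18% at day 28 and 10.2% over both days. Of 13 tested regulators of ABC genes, none passed at day 28 by the limma test and 1, Rxra, fell over both days at -0.32 ± 0.09 (SE; limma adjusted p = 0.0439). Nfe2l2 itself was at -0.10 ± 0.08 at day 28 (limma adjusted p = 0.462). None of the 5 genes for proteins that anchor apical transporters (Pdzk1, Nherf1, Ezr, Rdx and Msn) passed at day 14, at day 28 or over both days. Of 7 tested uptake carriers for organic anions, which bring the pumps' substrates into the cell, 1 rose at day 28. This was Slc22a7, at 1.68 ± 0.21 (limma adjusted p = 0.00474). It was 6.05-fold lower in the ANP pool at day 1 and level at day 7, with a log2 ratio of -0.02.

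Among the 5 multidrug and bile salt exporters none passed at day 14, at day 28 or over both days, although the pools stood far apart for the 2 P-glycoprotein genes. Abcb1b and Abcb1a encode near-identical pumps of hydrophobic drugs and lie side by side on chromosome 4, so that a probe of either may bind both transcripts. Abcb1b was 4.29-fold higher in the ANP pool at day 1 and 3.65-fold higher at day 7. The pool levels were 0.02 in vehicle against 2.12 in ANP, and then -0.32 against 1.55. Abcb1a was 3.15-fold higher at day 1, at -2.19 against -3.84, and 1.58-fold higher at day 7, at -3.30 against -3.96.

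At day 14 Abcb1b had levels of -0.53, -1.02 and -0.14 in vehicle and 0.67, 2.07 and 0.54 in ANP. By day 28 the levels were -1.35, -0.01 and -0.80 against -0.36, 1.05 and -0.23. The groups were apart at day 14 and overlapped at day 28. The difference was 1.66 ± 0.51 at day 14 (SE; limma adjusted p = 0.201) and 0.88 ± 0.51 at day 28 (limma adjusted p = 0.299). Its other 2 probes gave 1.37 and 3.13 at day 14 and 1.02 and 1.51 at day 28.

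Abcb1a had -3.71, -4.58 and -4.21 in vehicle and -3.54, -3.79 and -3.45 in ANP at day 14. For day 28 the levels were -5.34, -3.87 and -4.18 against -3.39, -2.75 and -3.54. The day 28 groups did not overlap, and the difference of 1.24 ± 0.36 (SE) had a limma adjusted p of 0.0653. Over both days Abcb1b was at 1.27 ± 0.36 and Abcb1a at 0.90 ± 0.26, and each just missed the threshold with limma adjusted p values of 0.0506 and 0.0507. Abcb1b passed over both days in 7 of 21 settings and Abcb1a in 8 of 21. With normexp correction the value of Abcb1a over both days was 0.45 in place of 0.90.

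Abcb11 and Abcg2 pointed the other way at day 1. Abcb11, the bile salt export pump of the liver, was 2.95-fold lower in the ANP pool, and Abcg2, the urate and drug exporter BCRP, was 2.15-fold lower at 2.93 against 4.04. A second Abcg2 probe gave a log2 ratio of -1.11 as well. Neither remained 2-fold apart at day 7, at -0.15 for Abcb11 and -0.19 for Abcg2. At days 14 and 28 Abcg2 stayed near 0, at 0.06 ± 0.16 and -0.06 ± 0.16 (SE). Abcb4, a phosphatidylcholine flippase, had ratios between -0.11 and 0.90 at the 4 days.

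**Figure D4:**
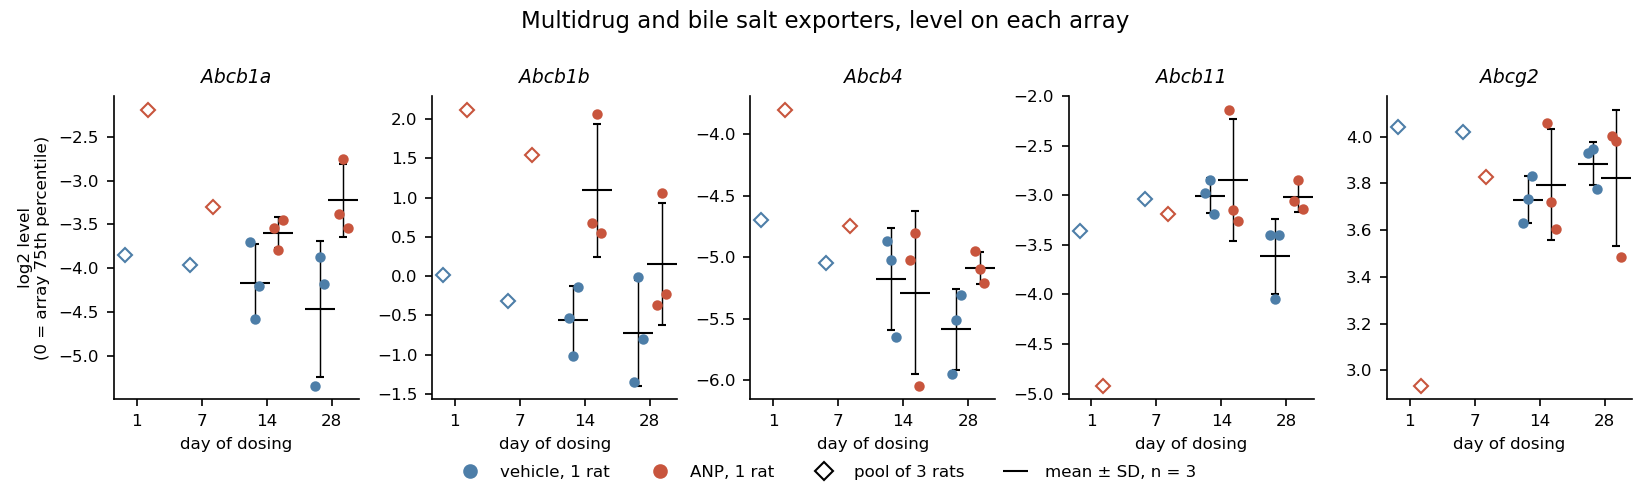
Level of the multidrug and bile salt exporters (log2 of the processed signal relative to the array's 75th percentile) against day of dosing, with points, diamonds and bars for rats, pools of 3 rats and mean ± SD of 3 rats. Abcb1b lay between -0.36 and 2.12 on ANP arrays and between -1.35 and 0.02 on vehicle arrays.

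In the pools of day 1, 4 members of 39 measured were at least 2-fold higher in ANP, against 4.82% of 12415 genes, and 7 were at least 2-fold lower, against 4.95%. The higher members were Abcc2, Abcb1b, Abcb1a and Abcc4. The lower ones were Abcg5, Abca15, Abcc8, Abcb11, Abcc6, Abcg2 and Abca4. Abcg5 and Abca15 were counted as measured only through the vehicle pool, which was the higher one. With normexp correction 4 were lower, and Abcg5, Abca15 and Abcb11 came to -0.75, -0.38 and -0.67. At day 7, 3 members of 35 were at least 2-fold higher (Abcc2, Abcb1b and Abcc4) against 2.12% of 12123 genes, and none was 2-fold lower, against 2.53%. The lowest ratios at day 7 were -0.78 for Abcg1, -0.68 for Abca4 and -0.64 for Abcc5. Each pool ratio compares 2 arrays, and its replicate error is not known. Beside these ratios, the 6 tubular injury markers were all at least 2-fold higher in the ANP pool of day 1, and their summed level was 228 against 53.3. Their part in the day 1 ratios was not tested.

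The channel regulators Abcc8 and Abcc9 carry no substrate. They are the sulfonylurea receptors SUR1 and SUR2, which form ATP-sensitive potassium channels with Kcnj11 and Kcnj8. Abcc8 (chr1:105734992-105816272) was 3.54-fold lower in the ANP pool at day 1, at -1.45 against 0.37, and near level at day 7, at 1.51 against 1.27. At day 14 it had 1.51, 1.69 and 1.42 in vehicle and 2.15, 1.49 and 1.84 in ANP, with overlap. At day 28 it had 0.97, 0.94 and 1.42 in vehicle and 1.92, 1.98 and 1.77 in ANP, with no overlap.

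Abcc8 thus was low in the ANP pool of day 1 and rose at day 28, by 0.78 ± 0.17 (SE; limma adjusted p = 0.0285). Over both days the difference was 0.53 ± 0.12 (limma adjusted p = 0.0252). Its second probe gave -2.14 at day 1 and 0.77 at day 28. The day 28 call was lost without vehicle rat 1 or 2 or ANP rat 1 or 2, with adjusted p values up to 0.105. The call over both days was lost without ANP rat 3 of day 14, vehicle rat 1 or 2 of day 28 or ANP rat 2 of day 28, with adjusted p values up to 0.0655. Markers of other cells moved beside it. The summed level of the 4 inner medulla and thin limb markers was 2.33 to 3.76 in vehicle rats of day 28 and 3.68 to 8.61 in ANP rats, and 4.71 to 8.79 in vehicle rats of day 14. None of these 4 markers passed at day 28. The 2 red cell markers both rose, with sums of 138 to 179 in vehicle rats and 253 to 354 in ANP rats of day 28. Their part in the result for Abcc8 was not tested. The vehicle level of Abcc8 was 0.43 lower at day 28 than at day 14, which did not pass (limma adjusted p = 0.147). None of the 5 ABC genes and channel partners under other symbols (Cftr, Tap1, Tap2, Kcnj8 and Kcnj11) passed at day 14 or 28.

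Abcc9 (chr4:177262848-177386837) was lower in ANP at day 14, with -0.38, -0.44 and -0.13 in vehicle and -1.05, -0.68 and -1.01 in ANP. The groups did not overlap, and the difference of -0.60 ± 0.12 (SE) missed the threshold with a limma adjusted p of 0.0605. The pools gave similar ratios of -0.63 at day 1 and -0.59 at day 7, with levels of -0.19 and -0.09 in vehicle and -0.82 and -0.68 in ANP. At day 28 the vehicle rats had -0.95, -1.03 and -0.88 and the ANP rats -0.99, -0.87 and -0.87, with no difference beyond the spread. The vehicle rats themselves were lower at day 28 than at day 14, by -0.63 ± 0.12 (limma adjusted p = 0.00975). A second probe gave -0.14 there with overlapping groups, and with the mean of the probes the value was -0.37 and did not pass (limma adjusted p = 0.282). At day 14 that second probe gave an ANP difference of -0.45, without overlap. The change of the ANP difference between the days, 0.64 ± 0.16, did not pass (limma adjusted p = 0.377).

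Among 11 tested lipid and sterol transporters, 2 fell at day 28 and over both days, against 2.69% and 4.08% of all genes. None rose, against 4.49% and 6.14%. At day 28, 8 of 11 were below 0, with a median of -0.37. Both calls and 4 of the 8 came from the Abcg3 cluster. Outside it 4 of 7 were below 0, with a median of -0.11 and no call. Without Abca5, which the filter admitted through the ANP rats of day 28, 4 of 6 were below 0, with a median of -0.24. At day 14 the median was 0.01 and none passed. The fallen genes were Abcg3 (chr14:5068275-5143762) and Abcg3l1 (chr14:5429242-5481948), rodent relatives of the BCRP gene Abcg2 whose substrates are not settled. Both lie in a cluster on chromosome 14 with Abcg3l3 and Abcg3l4.

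Abcg3 had -0.48, -0.50 and -0.72 in vehicle and -0.93, -0.81 and -0.61 in ANP at day 14. The day 28 levels were 0.21, 0.27 and -0.01 in vehicle and -0.39, -0.66 and -0.47 in ANP. Abcg3l1 had -0.18, -0.29 and -0.57 against -0.63, -0.76 and -0.48 at day 14, and 0.55, 0.61 and 0.28 against -0.22, -0.28 and -0.23 at day 28. For both genes the vehicle rats of day 28 stood above the arrays of the other replicated groups, and the ANP rats of day 28 lay between -0.66 and -0.22. In the pools Abcg3 had -0.23 in vehicle and -0.83 in ANP at day 1, and Abcg3l1 0.09 and -0.72. At day 7 Abcg3 had -0.80 and -0.24, and Abcg3l1 -0.43 and 0.00.

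At day 28 the difference was -0.66 ± 0.12 for Abcg3 (SE; limma adjusted p = 0.0137) and -0.72 ± 0.13 for Abcg3l1 (limma adjusted p = 0.012). Over both days it was -0.44 ± 0.08 (limma adjusted p = 0.0128) and -0.50 ± 0.09 (limma adjusted p = 0.00885), and both calls held in all 21 settings. The day 28 call was lost without vehicle rat 1 or 2 for both genes, and without ANP rat 2 for Abcg3, with adjusted p values up to 0.0612.

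These genes are close copies, and probes may not tell them apart. A second Abcg3 probe gave -0.44 at day 28 with overlapping groups, and -0.80 at day 7 where the first gave 0.56. A second Abcg3l4 probe gave -0.70 at day 28 and 1.02 between the vehicle groups, near the values of Abcg3l1, while the probe used for Abcg3l4 gave -0.22 and 0.07. The 250 bases before the start sites used for the promoter windows of Abcg3l1 and Abcg3l4 are 98.0% identical (246 identical bases in 251 aligned columns). For Abcg3 and Abcg3l1 the figure is 45.4%. The pair is shown because of this likeness, with bases that the alignment does not match in capitals, at chr14:5481877-5482126 (minus strand) for Abcg3l1 and chr14:4890062-4890311 (minus strand) for Abcg3l4.
Abcg3l1: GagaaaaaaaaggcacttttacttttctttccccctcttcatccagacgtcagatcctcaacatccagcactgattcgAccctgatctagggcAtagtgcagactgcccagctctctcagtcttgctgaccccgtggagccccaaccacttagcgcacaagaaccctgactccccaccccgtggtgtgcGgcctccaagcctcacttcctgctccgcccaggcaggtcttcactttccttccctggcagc
Abcg3l4: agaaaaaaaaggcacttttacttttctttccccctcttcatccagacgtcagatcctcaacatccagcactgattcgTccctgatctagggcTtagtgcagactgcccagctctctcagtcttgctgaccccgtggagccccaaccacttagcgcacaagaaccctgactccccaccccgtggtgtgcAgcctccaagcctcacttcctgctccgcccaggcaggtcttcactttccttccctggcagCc
Neither stretch holds the antioxidant response core. The start sites used are not the outer ends of these genes. The Abcg3l4 stretch lies within the span of its gene (chr14:4849938-4899400), and the Abcg3l1 stretch partly overlaps its gene, which ends at 5481948.

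The other lipid transporters did not pass in an ANP comparison at days 14 and 28. Abca1, which loads cholesterol onto apolipoprotein A-I, was at 0.18 ± 0.20 at day 14 and -0.39 ± 0.20 at day 28 (SE; limma adjusted p = 0.762 and 0.237). Abcg1, which passes cholesterol to high-density lipoprotein, was at 0.40 ± 0.36 and -0.11 ± 0.36. Its levels at day 14 were 0.61, 1.70 and 1.26 in vehicle and 1.53, 1.72 and 1.53 in ANP. Those at day 28 were 0.78, 0.83 and 1.24 against 0.83, 0.08 and 1.60, again with overlap. Its pools stood at 2.10 in vehicle and 1.80 in ANP at day 1, and at 1.95 and 1.17 at day 7. Abcg3l3 was at -0.75 ± 0.24 at day 28 (limma adjusted p = 0.084), with no overlap between the groups. Abca4, the retinoid flippase, was 2.06-fold lower in the ANP pool at day 1 and at 0.45 ± 0.17 at day 28 (limma adjusted p = 0.125). Its pools had 0.88 in vehicle and 0.20 in ANP at day 7. Its day 14 levels were 0.55, 0.84 and 1.05 against 1.02, 0.79 and 0.65, with overlap. Its day 28 levels were 0.25, 0.34 and 0.44 against 1.12, 0.68 and 0.57, with none. Abca2, Abca5, Abca7, Abcg3l4 and Abcg4 lay between -0.47 and 0.52 at day 28.

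The sterol transporter pair Abcg5 and Abcg8 was near background in this tissue. Abcg8 was well above background on none of the 4 pools, and Abcg5 only in the vehicle pool of day 1. Abcg5 had a level of -4.01 in that pool and -6.19 in the ANP pool, where it was not well above background, so it was at least 4.40-fold lower. Abca15, an Abca gene of little known function, was likewise measured only in the vehicle pool of day 1, at -4.79 against -6.81, and was at least 2.56-fold lower. These bounds set the ANP array at the higher of the dim probe's own signal and the lowest signal among probes well above background. At days 7, 14 and 28, Abcg5 lay between -7.18 and -5.77 on all arrays. Abca15 lay between -7.95 and -3.74, and neither was measured in a full group. A direct repeat of AGGTCA spaced by 4 bases, bound by the sterol-sensing LXR receptors, was searched on both strands and was in 2 of 33469 promoters and in none of the 33 member promoters. Of 8 tested sterol acceptors and sterol response genes, 1 fell at day 28 and none rose, against 2.69% and 4.49% of all genes. It was Apoe, a lipid carrier protein, at -0.84 ± 0.19 (SE; limma adjusted p = 0.0302).

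Of the 3 tested peroxisomal and cobalamin transporters, 1 passed at day 28, against 7.18% of all genes. This was Abcd4, which fell. Abcd4 (chr6:109977541-109992050) exports cobalamin from lysosomes. It had 0.66, 0.26 and 0.27 in vehicle and 0.29, 0.32 and 0.28 in ANP at day 14. By day 28 the levels were 1.44, 1.46 and 1.34 in vehicle and 0.59, 0.65 and 0.88 in ANP. The day 28 vehicle rats stood above all other arrays of the series, whose highest value was 0.92, in the ANP pool of day 7.

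The difference of Abcd4 was -0.10 ± 0.12 at day 14 (SE; limma adjusted p = 0.789) and -0.71 ± 0.12 at day 28 (limma adjusted p = 0.0109). The day 28 call held in all 16 settings, and the call over both days (-0.40 ± 0.08, limma adjusted p = 0.016) in all 21. The pools stood at 0.88 and 0.88 at day 1 and at 0.60 and 0.92 at day 7. Abcd3, which imports branched acyl chains into peroxisomes, was at -0.29 ± 0.14 at day 28. It was 1.91-fold lower in the ANP pool at day 1, and Abcd2 1.59-fold lower. None of the 7 peroxisomal partner genes passed at day 14 or 28.

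The vehicle arrays of day 28 also differed from those of day 14, and Abcd4, Abcg3 and Abcg3l1 were among the genes that differed. The 3 vehicle arrays of day 14 were on 1 slide and the 3 of day 28 on another. Slide and day therefore cannot be told apart between these groups alone. Between the vehicle groups 4 members were higher at day 28 and 1 was lower by the limma test, against 6.99% and 4.16% of all genes. Abcd4 was 1.02 ± 0.12 higher (SE; limma adjusted p = 0.00239), Abcg3l1 0.82 ± 0.13 (limma adjusted p = 0.0056) and Abcg3 0.72 ± 0.12 (limma adjusted p = 0.00692). Abca2, a lipid transporter known from myelin-forming cells, was 0.70 ± 0.15 higher (limma adjusted p = 0.0179), and Abcc9 was lower, as given above. This comparison and that of day 28 share the 3 vehicle arrays of day 28, so their values for these genes are not independent of each other.

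Abca2 had levels of 5.16, 4.80 and 4.98 in the vehicle rats of day 14 and 5.71, 5.81 and 5.51 in those of day 28, with no overlap. The ANP rats had 5.00, 4.86 and 5.02 at day 14 and 4.99, 5.37 and 5.57 at day 28. In the pools it had 5.43 and 5.17 at day 1 and 5.06 and 5.29 at day 7. The vehicle call of Abca2 was lost without vehicle rat 2 or 3 of day 14 or vehicle rat 1 or 2 of day 28, with adjusted p values up to 0.075. With slide as a fixed block, which rests on the 3 ANP arrays of day 14 to link the slides, Abcd4 was 1.01 higher (limma adjusted p = 0.141), Abcg3l1 0.82, Abcg3 0.50, Abca2 0.75 and Abcc9 -0.83, and none passed.

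Markers of the cortex also differed between the vehicle groups. Of 12 markers of the convoluted proximal tubule, 8 were higher in the vehicle group of day 28 than in that of day 14 and none was lower, with a median of 1.60. Of 6 glomerular markers 5 were higher, with a median of 1.79. Over all genes 6.99% were higher and 4.16% lower between the vehicle groups. The summed glomerular level, with the array's 75th percentile set to 1, was 13.1 to 15.5 in vehicle rats of day 14, 10.6 to 13.1 in ANP rats of day 14, 26.0 to 34.5 in vehicle rats of day 28 and 16.0 to 17.3 in ANP rats of day 28. The summed level of the convoluted tubule markers was 319 to 654, 303 to 421, 840 to 999 and 610 to 729 in the same order. Abcd4, Abcg3 and Abcg3l1 were also highest in the vehicle rats of day 28. In the ANP comparison of day 28, 2 glomerular markers fell, with a median of -0.97. Of the convoluted tubule markers 1 fell and 1 rose, with a median of -0.66. The shares over all genes were 2.69% lower and 4.49% higher. In the ANP rats of day 14 the convoluted tubule list had median differences from the vehicle mean of -0.32, -0.69 and -0.53. At day 28 they were -0.74, -0.57 and -0.71. Abcd4 differed by -0.10, -0.08 and -0.12, and then by -0.82, -0.76 and -0.54. Abcg3 gave -0.36, -0.24 and -0.04, then -0.55, -0.82 and -0.62. Abcg3l1 gave -0.29, -0.42 and -0.14, then -0.70, -0.76 and -0.71. The part of the cortex markers in the results for these genes was not tested.

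**Figure D5:**
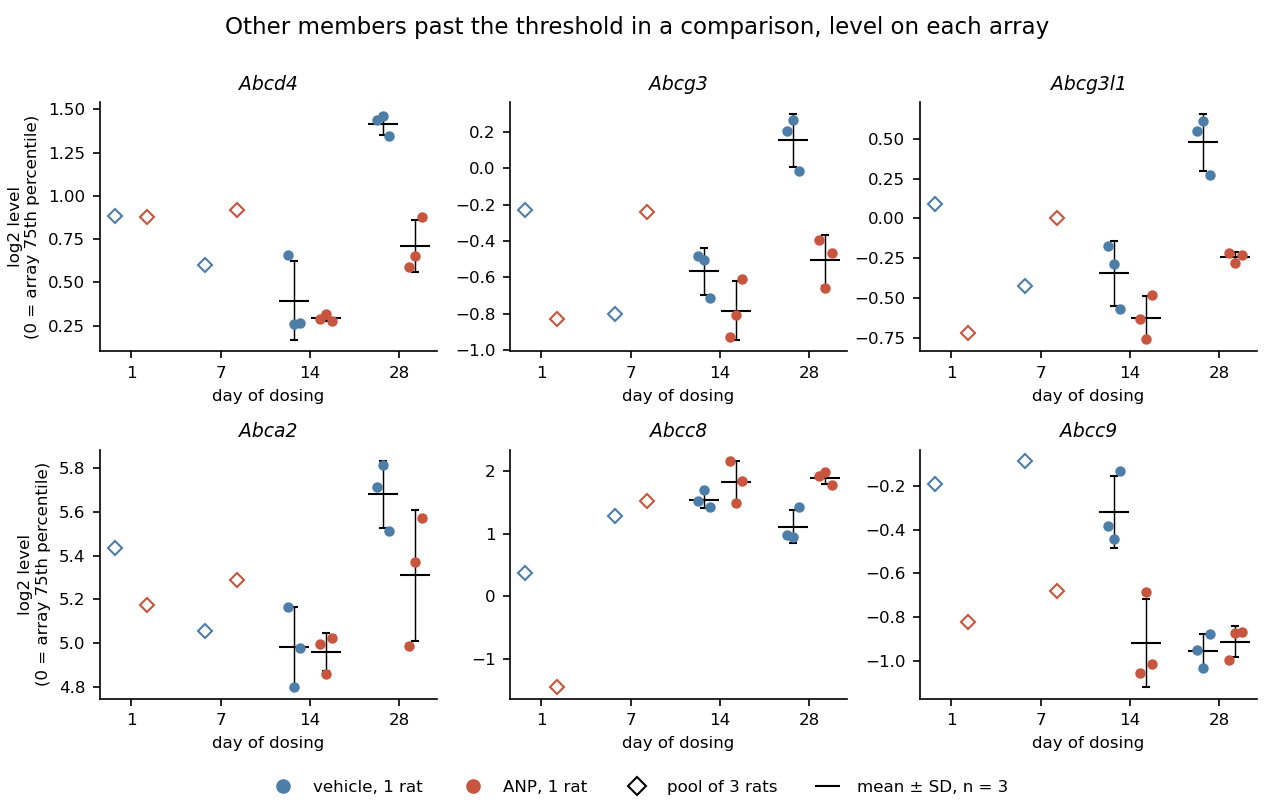
Level of 6 further members (log2 of the processed signal relative to the array's 75th percentile) against day of dosing, with points, diamonds and bars for rats, pools of 3 rats and mean ± SD of 3 rats. In Abcd4 the vehicle rats of day 28 (1.34 to 1.46) stand above all other arrays, and in Abcc8 the ANP pool of day 1 (-1.45) stands below them.

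The 5 mitochondrial and lysosomal Abcb members did not pass at day 14, at day 28 or over both days. Abcb6, a porphyrin transporter, came closest, with 0.36 ± 0.10 at day 28 (SE; limma adjusted p = 0.0513) and no overlap between the groups. Abcb8 was at 0.24 ± 0.09, Abcb9 at -0.26 ± 0.11 and Abcb10, needed for haem synthesis in red cell precursors, at -0.30 ± 0.33 at day 28. In the pools the genes of this group lay between -0.47 and 0.34.

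The 3 members that act in translation did not pass in any comparison. Abce1, the ribosome recycling factor, was at 0.20 ± 0.09 at day 14 and 0.19 ± 0.09 at day 28 (SE; limma adjusted p = 0.377 and 0.206). Its second probe gave 0.69 at day 28. Abcf1 and Abcf3, which bind ribosomes or translation factors, lay between -0.06 and 0.17 at days 14 and 28. In the pools of day 1 Abce1 was at 0.57.

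Set side by side at day 28, the subfamilies had median log2 differences of 0.04 for Abca (5 tested), 0.36 for Abcb (9), 0.04 for Abcc (9), -0.29 for Abcd (3) and -0.47 for Abcg (7). All 7 tested Abcg genes were below 0 at day 28, with 2 past the threshold, against 2.69% of all genes lower. Both calls came from the Abcg3 cluster, whose probes may not tell the copies apart. The 3 Abcg genes outside it had a median of -0.11, no call and overlapping groups. With the array median as the scale 6 of 7 were below 0. In the vehicle comparison 6 of the 7 were above 0, with a median of 0.68. The Abcb genes had 7 of 9 above 0 at day 28 and none past the threshold. Without Abcb4, 6 of 8 were above 0, with a median of 0.30. The Abca median includes Abca5, at 0.52, which the filter admitted through the ANP rats of day 28. The other tested Abca genes were at -0.39 (Abca1), -0.37 (Abca2), 0.04 (Abca7) and 0.45 (Abca4). The 3 Abcc genes that rose, Abcc2, Abcc3 and Abcc8, include 2 of the 7 conjugate pumps and 1 channel regulator. No test of a difference between subfamilies was made.

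Groups without overlap were found at day 28 for 11 of 36 members higher in ANP and 9 lower, against 18.6% and 14.2% of all genes. The 11 include Abca5 and Abcb4, which the filter admitted through that group, and 9 of 34 were higher without them. The day 14 counts were 7 and 3, against 10.3% and 7.92%. No gene of all those tested passed the limma test for a difference between the ANP effects of days 14 and 28. At an unadjusted p under 0.05, 7 members and 1098 genes differed in that test. The smallest adjusted p among members was 0.377, for Abcc9 and Abcd4.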

How the data were processed

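Total RNA of renal outer medulla was labelled with Cy3 and hybridised to 16 one-colour Agilent arrays, per the labels' protocols. The submitters' processing notes name Agilent Feature Extraction 10.7. The deposited scanner files hold, per the file headers, a processed signal per spot, which is an intensity on a linear scale after background subtraction. The deposited value table holds the authors' linear values of the same arrays, read as a ratio to each array's 75th percentile and used only as an alternative, with a median of 0.0990 to 0.108 per array.

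Each processed signal was taken as log2 of the deposited intensity minus the array's 75th percentile over all probes. Control and outlier spots were left out. Accessions without version were matched to RefSeq symbols (GRCr8), which named 27460 of 61657 probes. Where a gene had several probes, the one brightest on average at days 14 and 28 was used. limma 3.58.1 in R 4.3.3 fitted 1 mean for each of the 4 groups, with Benjamini-Hochberg adjustment over 11849 genes at 0.05. The fit was tested on simulated data. Pools gave a ratio with a threshold of 2-fold. Members named with every array are those called in a comparison, the conjugate pumps and the 3 largest pool ratios in each direction. Members and lists were chosen with earlier results of these data known.

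Replicate numbers came from the labels, and nothing there pairs the rats. The planned normexp correction used the median signal of each spot, since the mean signal was not in the files analysed. Protein sequences were not used here. Some members are counted but not reported singly here.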

Additional observations from a re-analysis of the deposited data

Results flagged for a closer look

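Abcc8, the sulfonylurea receptor SUR1, was 1.82 lower on the log2 scale (a ratio of -1.82) in the ANP pool than in the vehicle pool at day 1, and 0.780 higher in ANP rats than in vehicle rats at day 28 (limma adjusted p = 0.0285, higher in 3 of 3 ANP rats than in any vehicle rat). The gene was past its threshold in opposite directions at these days. The difference between the days was not tested, since each pool is a single array.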

How the results depend on the processing

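The counts of called members moved as follows, and the cause of these moves was not tested beyond what each setting changes. No called value changed sign, but the uncalled day 28 median of the conjugate pumps turned from -0.04 to 0.02 with the array median, which also left 6 in place of 7 Abcg genes below 0. At day 14 the count of members higher in ANP went from 0 to 1 (Abcc2) with the array median as scale, with quantile normalization, with normexp, with only probes well above background on all arrays compared, with only the groups compared in the fit, and with slide as a random block. The count of lower members there went from 0 to 1 (Abcc9) with normexp and with the random slide block. At day 28 the count of higher members went from 3 to 5 with normexp, to 1 with no background filter, to 1 with only the groups compared and to 6 with the random slide block, which also moved the lower members from 3 to 6. The correlation within slides estimated for that block was -0.089, below 0, so its counts cannot show whether calls withstand a slide effect. Over both days the higher members went from 3 to 7 with the array median, to 6 with quantile normalization, to 6 with normexp, and to 5 each with the strict background filter, the mean of a gene's probes and the random slide block. The lower members went from 3 to 5 with normexp and to 5 with the random slide block. Between the vehicle groups the 1 lower member became 2 with normexp, 0 with the mean of probes, 2 with only the groups compared and 5 with the random slide block. With slide as a fixed block the vehicle counts of 4 higher and 1 lower became 0 and 0. That block could not be fitted for day 28, where the ANP arrays are alone on a slide. In the pools of day 1 the members at least 2-fold lower went from 7 to 4 with normexp.

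Leaving out 1 array at a time gave 0 to 3 higher and 1 to 3 lower members at day 28, and 2 to 5 higher and 3 to 4 lower over both days. It gave 3 to 5 higher and 1 to 3 lower between the vehicle groups, and 0 at day 14 and for the difference between the days. Replicate numbers do not pair the rats: deviations of same-numbered arrays correlated between -0.117 and 0.149 over 18 pairs, and those of different numbers between -0.179 and 0.177. With the replicate number as a block, 2 members were lower between the vehicle groups in place of 1, and counts at days 14 and 28 stayed at 0 and at 3 higher and 3 lower. The planned naming of probes by a gene name in the scanner files was not run, since only accessions were used here. Precision is limited by 3 rats a group, and the dim probes of Abcb4, Abcg5 and Abca15 lie close to background.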
